A study of Mus musculus with 20 samples.

Results

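The Tnf and Aif1 locus on mouse chromosome 17 was described from peaks of H3K27ac, the acetylation of histone H3 at lysine 27 that marks promoters and enhancers in use. Its 6 member genes lie side by side: Aif1, the pseudogene Ncr3-ps, Lst1, Ltb, Tnf and Lta. All peaks overlapping the span of a member plus 25 kb on either side were taken, and peaks shared between members were counted once. These windows join into 1 stretch of 84.6 kb (GRCm38, chromosome 17, 35145986 to 35230578), which held 82 of the 267215 peaks in the 10 deposited lists. Stretches covered in at least 2 of the 10 lists, called consensus regions here, numbered 6 of 21013. The locus was chosen by the -log10 p of its peaks with RANKL against untreated cells, since Aif1 holds the strongest region gained with RANKL. The values of RANKL against untreated cells are therefore a description, with no test.

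All libraries came from RAW264.7, a mouse macrophage line made from a virus-induced tumour, which the labels describe as derived from monocytes. Untreated cells, cells given RANKL at 50 ng/ml for 4 h, and cells given the same RANKL together with the BET inhibitor I-BET at 500 nM for 4 h had 3 libraries each. Cells given I-BET at 500 nM without RANKL for 4 h had 1 library, numbered 3, which is given as a single value. RANKL is the cytokine that drives monocytic precursors towards osteoclasts, and BET proteins are readers of acetylated histones. Separate cultures are not named in the labels, so the p-values given here reflect the spread between libraries, part of which may be technical.

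Tnf, Lta and Ltb encode ligands of the tumour necrosis factor family. TNF and lymphotoxin alpha are secreted as trimers that bind TNF receptors, and lymphotoxin beta anchors lymphotoxin alpha at the cell surface as a ligand of the lymphotoxin beta receptor. Macrophages are a main source of TNF, which promotes osteoclast formation together with RANKL, whereas the lymphotoxins are mostly made by lymphocytes. Lst1 encodes a small membrane protein of leukocytes, Ncr3-ps is the mouse remnant of an activating receptor gene of natural killer cells, and Aif1 encodes Iba1, a calcium-binding protein that bundles actin in macrophages and microglia.

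The members span chromosome 17 at 35170986 to 35176083 (Aif1), 35180536 to 35184809 (Ncr3-ps), 35185095 to 35188440 (Lst1), 35194507 to 35196305 (Ltb), 35199367 to 35202007 (Tnf) and 35203165 to 35205578 (Lta). RefSeq (GRCm38.p6) promoter sequences matched 4 of the 6 members: Tnf, Lta, Ltb and Aif1. The 250 bases before the start are printed for Tnf, whose promoter was covered by peaks in some lists and not in others, for Ltb, which holds an NF-kB match, and for Aif1, whose promoter was covered in no list. They are written 5′ to 3′ on the gene's own strand, and capitals mark motif matches. The strand is minus for Tnf (35202008 to 35202257) and Aif1 (35176053 to 35176302) and plus for Ltb (35194257 to 35194506).
Tnf: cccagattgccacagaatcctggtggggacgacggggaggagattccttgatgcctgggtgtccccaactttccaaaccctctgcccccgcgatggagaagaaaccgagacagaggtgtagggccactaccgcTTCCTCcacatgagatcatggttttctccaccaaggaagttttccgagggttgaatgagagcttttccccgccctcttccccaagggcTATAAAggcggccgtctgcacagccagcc
Ltb: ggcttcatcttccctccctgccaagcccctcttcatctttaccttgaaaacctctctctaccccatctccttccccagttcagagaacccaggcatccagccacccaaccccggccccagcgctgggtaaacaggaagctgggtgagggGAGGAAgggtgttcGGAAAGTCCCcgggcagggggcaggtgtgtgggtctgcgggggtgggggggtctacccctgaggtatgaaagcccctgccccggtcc
Aif1: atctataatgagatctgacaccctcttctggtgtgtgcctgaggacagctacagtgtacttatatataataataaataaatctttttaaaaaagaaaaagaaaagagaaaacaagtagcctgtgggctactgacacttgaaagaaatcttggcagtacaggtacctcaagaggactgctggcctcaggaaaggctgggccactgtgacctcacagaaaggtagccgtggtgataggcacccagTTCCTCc
Both strands were searched for the NF-kB consensus, the TATA box as TATAAA, the PU.1 core as GAGGAA, the cyclic AMP response element as TGACGTCA, and the AP-1 consensus as TGANTCA. Tnf held TATAAA 29 to 24 bases before its start, and a reverse-strand GAGGAA 117 to 112 bases before it. Ltb held the NF-kB consensus on the reverse strand 87 to 78 bases before its start, and GAGGAA from 101 to 96 bases before it. Aif1 held a reverse-strand GAGGAA 7 to 2 bases before its listed start, and Lta held TATAAA 167 to 162 bases before its own. The starts are those of the RefSeq promoter table, and 227 of the 250 bases of the Lta window, its TATAAA among them, and 31 of those of the Aif1 window lie inside the gene's own span. None of the matches overlapped another, and neither the AP-1 consensus nor the cyclic AMP response element was found in the 4 promoters. Of 32851 promoter windows of the same length, 7.25% held the NF-kB consensus, 12.4% the TATA box, 23.3% the PU.1 core, 6.75% the AP-1 consensus and 1.55% the cyclic AMP response element.

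Libraries numbered 2 stood apart and are given beside the others throughout. RANKL replicate 2 covered 184.6 Mb in all, against 3.44 to 25.9 Mb in the other lists, and RANKL+I-BET replicate 2 was the shortest. Peaks lay within 1 kb of 8 to 12 of 12 macrophage markers in every list. RANKL replicate 2 also had them at 7 of 8 lymphocyte, 5 of 5 fibroblast and osteoblast and 4 of 5 other tissue markers, where the remaining lists had 0 or 1, 0 or 1 and 0. The part of these differences in the results below was not tested. Each peak's fold enrichment is the authors' own ratio to local background. Without read counts in the lists, the depth is unknown and values carry no counting interval.

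**Figure D1:**
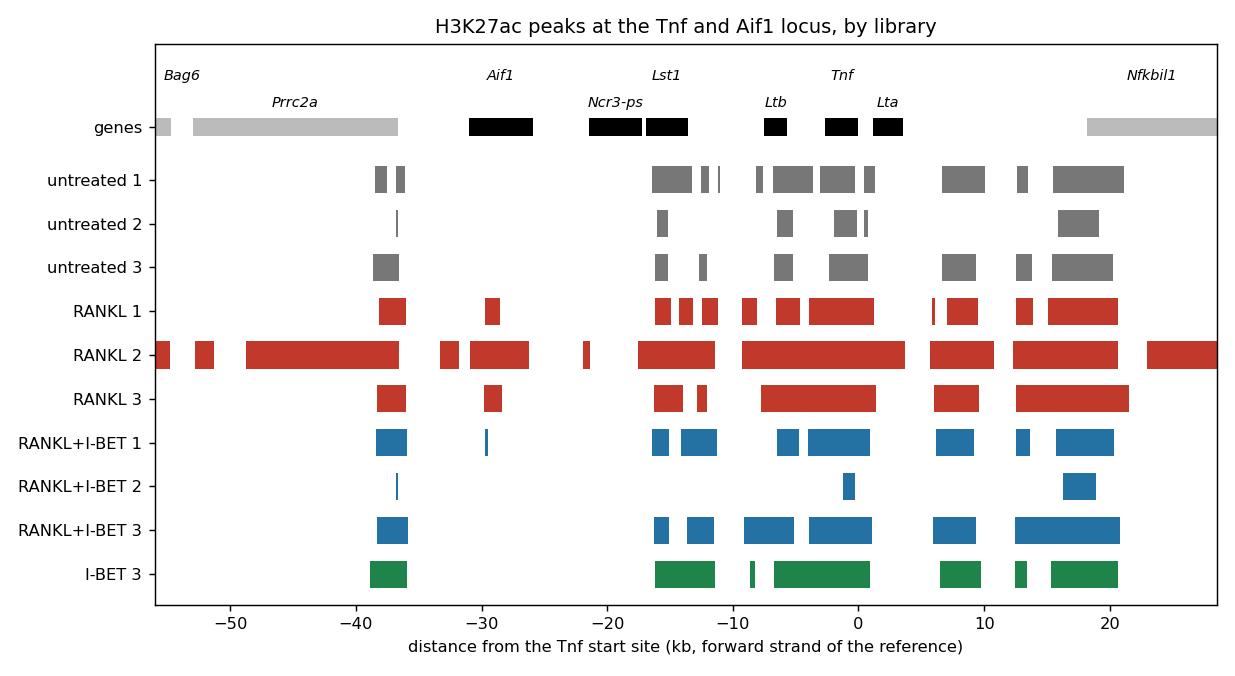
Peaks in each of the 10 lists along the 84.6 kb locus, with distance from the Tnf start site in kb on the x axis, 1 row for each library, member genes in black and neighbouring protein-coding genes in grey. A peak inside Aif1 appears in the 3 RANKL libraries and, over 217 bp, in RANKL+I-BET replicate 1, while the stretch from Ltb to Lta carries peaks in every library.

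The Tnf gene itself was acetylated in all 10 lists. Peaks covered 89.9%, 69.9% and 90.0% of the Tnf gene body in untreated replicates 1, 2 and 3, and 100% in each RANKL library. With RANKL+I-BET they covered 100%, 34.8% and 100%, and with I-BET alone 100%. The only partly covered bodies were thus those of the untreated lists and of RANKL+I-BET replicate 2. The peak on Tnf had a fold enrichment of 2.55, 2.41 and 2.54 in untreated replicates, 2.97, 4.81 and 2.59 with RANKL, 3.47, 5.40 and 3.26 with RANKL+I-BET and 3.69 with I-BET alone. The untreated values lay below all others, at the closest by 2.55 against 2.59, but whole lists also differ in fold. The share of other genes with such a separation was not computed. By fold, the Tnf peak stood within the top 56.4%, 56.2% and 41.4% of its own list in untreated replicates. Its place was within the top 56.6%, 13.4% and 47.9% with RANKL, 50.2%, 11.3% and 18.2% with RANKL+I-BET and 9.37% with I-BET alone. On this scale untreated and RANKL overlapped. The fold values rest on peaks of different widths, from 0.919 kb in RANKL+I-BET replicate 2 to 12.9 kb in RANKL replicate 2.

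The promoter of Tnf was covered in full or not at all. Peaks took in all 250 bases shown above in 3 of 3 RANKL libraries, 2 of 3 RANKL+I-BET libraries, the I-BET library and 1 of 3 untreated libraries, replicate 3. In untreated replicates 1 and 2 the nearest peak lay 180 and 120 bp from this window, and in RANKL+I-BET replicate 2 it lay 281 bp away. In both of those untreated lists the uncovered promoter was flanked by a peak over Tnf and a short peak towards Lta, of 865 and 270 bp.

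Lta, next to Tnf, was hardly covered. Its gene body was covered over 5.68%, 0% and 0% in untreated replicates, 4.27%, 100% and 8.33% with RANKL and 0% in every RANKL+I-BET list and with I-BET alone. The full coverage was in RANKL replicate 2, the longest list. That list also held 7 of 8 lymphocyte, 5 of 5 fibroblast and osteoblast and 4 of 5 other tissue markers. Its promoter was covered in that list alone. In the lists without a peak on Lta, the nearest peak ended 75 to 1438 bp away, on the Tnf side.

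Ltb, on the other side of Tnf, was covered over 59.9%, 44.6% and 58.9% of its body in untreated replicates. The values were 47.9%, 100% and 100% with RANKL, 45.3%, 0% and 100% with RANKL+I-BET and 56.4% with I-BET alone. In each list that covered only part of Ltb, no peak reached all of its promoter: untreated replicate 1 covered 172 of the 250 bases and the others 0. The promoter was covered in full in RANKL replicates 2 and 3 and in RANKL+I-BET replicate 3. The Ltb groups overlapped: RANKL replicate 1 lay below untreated replicates 1 and 3.

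From the first base of Ltb to the last base of Lta, a stretch of 11.1 kb, peaks were joined to a different extent. Untreated replicates held 3, 3 and 2 separate peaks there, and RANKL replicates 2, 1 and 1. RANKL+I-BET replicates held 2, 1 and 2, and I-BET alone 1. Peak lengths are full widths, which may reach beyond the stretch. The longest peak was 3.14, 1.85 and 3.12 kb in untreated cells, 5.22, 12.9 and 9.14 kb with RANKL, 4.90, 0.919 and 5.002 kb under both agents and 7.61 kb with I-BET alone. Every RANKL list thus had a longer peak than every untreated list, and RANKL+I-BET replicates 1 and 3 lay between them. RANKL+I-BET replicate 2 lay below every untreated list, and I-BET alone lay above RANKL replicate 1. The share of other stretches with such a separation was not computed. For covered length, 41.8% of gene windows had every RANKL list above every untreated list. Coverage of the stretch was 61.2%, 30.7% and 42.4% untreated, 64.2%, 100% and 80.0% with RANKL, 60.6%, 8.30% and 66.6% with RANKL+I-BET and 68.7% with I-BET.

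Lst1 was covered in 9 of 10 lists. The share of its body was 85.9%, 26.1% and 31.0% in untreated replicates, 58.6%, 100% and 69.8% with RANKL, 55.9%, 0% and 37.4% with RANKL+I-BET and 78.8% with I-BET alone. Untreated and RANKL values overlapped, because untreated replicate 1 lay above RANKL replicates 1 and 3. The strongest peak on Lst1 reached a fold enrichment of 5.34 in RANKL replicate 1 and 4.81 in replicate 2, but 2.49 in replicate 3, which lies below the 2.51 to 3.24 of the untreated lists. The pseudogene Ncr3-ps, directly beside Lst1, had no peak on its body in 9 lists, and RANKL replicate 2 covered 10.2% of it. The nearest peak in the other lists was 759 to 1197 bp away, except in RANKL+I-BET replicate 2, where it was 15159 bp away.

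**Figure D2:**
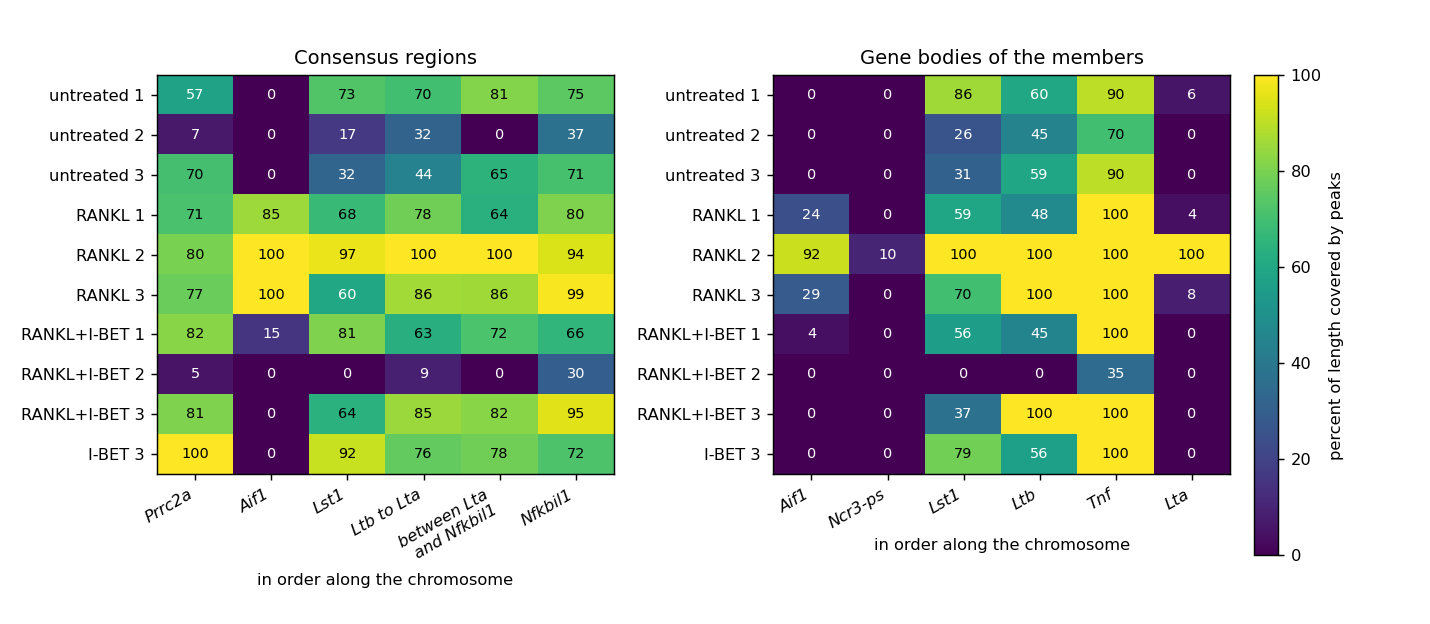
Percent of each consensus region (left) and of each member's gene body (right) covered by peaks, with 1 row for each library and colour from 0 to 100%. The Aif1 region is at 0 in the 3 untreated libraries and the I-BET library and at 85.2% to 100% with RANKL, while the Tnf body is covered in every row.

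The Aif1 region was the one consensus region of the locus that all RANKL lists and no untreated list held (chromosome 17, 35172191 to 35173646). Over the series 719 of 21013 consensus regions, 3.42%, had this pattern, which the choice of the locus used. Peaks covered 85.2%, 100% and 100% of it in RANKL replicates, 0% in each untreated list, 14.9%, 0% and 0% with RANKL+I-BET and 0% with I-BET alone. It lies inside the gene, its centre 3134 bp downstream of the listed Aif1 start. Whether it is exonic or intronic was not analysed here.

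The peak in this region was 1.24, 4.68 and 1.46 kb wide in RANKL replicates 1, 2 and 3, and that of RANKL+I-BET replicate 1 was 217 bp wide. Its authors' fold enrichment was 8.02, 6.02 and 4.23 with RANKL and 3.21 in RANKL+I-BET replicate 1. By -log10 p, the RANKL peaks stood at 20.9, 27.4 and 11.4, within the top 0.646%, 7.94% and 9.59% of their own lists. The RANKL+I-BET peak stood at 3.99, within the top 67.6% of its list. The region led the gained regions by its lowest RANKL -log10 p of 11.4, and the next, in Mon1a, had 10.9. RANKL replicates 1 and 3 held the region without the long list of replicate 2.

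No list had a peak on the Aif1 promoter sequence shown above. The nearest peak ended 2554, 261 and 2407 bp from it in RANKL replicates and 3562 bp away in RANKL+I-BET replicate 1. In the other lists it was 9266 to 10676 bp away, at Lst1 or Prrc2a. The acetylated part of Aif1 thus lay within the gene and left the listed start uncovered in all 10 lists, whereas the Tnf promoter was covered in 7 of 10.

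Among the 719 gained regions, 164 (22.8%) were held by 0 RANKL+I-BET lists, 349 (48.5%) by 1, 192 (26.7%) by 2 and 14 (1.95%) by all 3. The Aif1 region belonged to the class held by 1. Since RANKL+I-BET replicate 1 touched it over 217 bp, it was not among the 347 regions, 1.65% of all, held by every RANKL and no RANKL+I-BET list. With coverage of at least 50% of a region required, or a -log10 q of at least 5, 0 of 3 RANKL+I-BET lists held it and 3 of 3 RANKL lists still did. I-BET alone lacked 501 of the 719 gained regions (69.7%), this one among them.

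Of the other 5 consensus regions, 3 were held by all 10 lists. These lay at the end of the neighbouring gene Prrc2a that faces Aif1 (35163114 to 35166057), over Ltb, Tnf and the edge of Lta (35192739 to 35203365), and at Nfkbil1 (35214461 to 35223168), which encodes a nuclear protein related to the NF-kB inhibitors. The Lst1 region (35185568 to 35190767) was missing from RANKL+I-BET replicate 2 only. The region between Lta and Nfkbil1 (35207896 to 35212095), which overlaps no listed gene, was missing from untreated replicate 2 and RANKL+I-BET replicate 2, the shortest lists.

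This intergenic region was covered over 81.4%, 0% and 64.7% in untreated replicates, 63.7%, 100% and 85.6% with RANKL, 71.5%, 0% and 82.3% with RANKL+I-BET and 78.3% with I-BET. The Nfkbil1 region was covered over 74.7%, 37.3% and 70.8% untreated, 80.5%, 94.3% and 98.8% with RANKL, 65.6%, 29.96% and 95.4% with RANKL+I-BET and 72.0% with I-BET. At Nfkbil1 every RANKL list lay above every untreated list, while RANKL+I-BET replicate 3 lay among the RANKL lists. The share of all regions with this separation was not computed. Of gene windows, 41.8% had every RANKL list above every untreated list in covered length. No region of the locus was held by all untreated and no RANKL list, a pattern that 0% of all regions had. None was held by all RANKL+I-BET and no untreated list, as 0.128% of regions were, or by all untreated and no RANKL+I-BET list, as 0.0428% were.

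**Figure D3:**
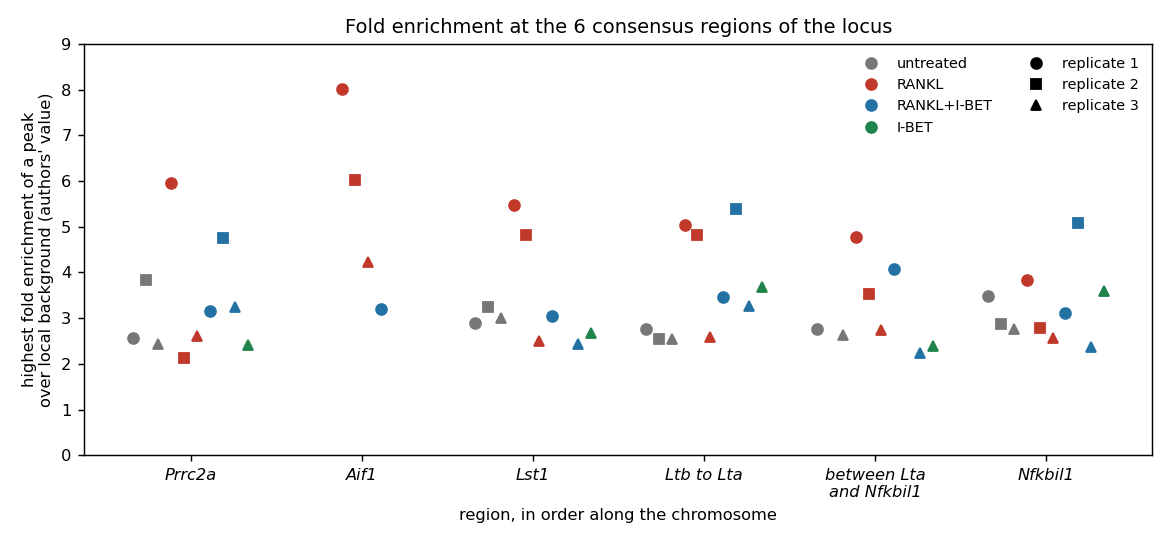
Highest fold enrichment of a peak over local background (the authors' value, y axis) at each of the 6 consensus regions, with 1 point for each library that held the region, coloured by group and shaped by replicate. At Aif1 the points are the 3 RANKL libraries, from 4.23 to 8.02, and RANKL+I-BET replicate 1 at 3.21.

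RANKL replicate 1 gave the highest fold at 4 of the 6 regions. At Prrc2a it reached 5.96, against 2.12 and 2.61 in RANKL replicates 2 and 3 and 2.44 to 3.85 untreated. Between Lta and Nfkbil1 it reached 4.78, against 3.54 and 2.74 in RANKL replicates 2 and 3. At the region from Ltb to Lta the highest value, 5.40, was that of RANKL+I-BET replicate 2. Over the whole locus, the mean fold weighted by covered length was 2.74, 2.74 and 2.63 untreated and 4.08, 3.95 and 2.66 with RANKL. It was 3.24, 5.16 and 2.57 with RANKL+I-BET and 2.95 with I-BET alone. RANKL replicate 3 thus differed little in fold from untreated cells, and the groups overlapped. The median fold of all peaks in a list was 2.62, 2.46 and 2.41 untreated and 3.11, 1.93 and 2.54 with RANKL. It was 3.47, 4.56 and 2.50 with RANKL+I-BET and 2.55 with I-BET alone, so fold values are not on one scale across lists.

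Summed over the locus, peaks in the untreated lists covered 22.9, 7.72 and 17.3 kb. RANKL lists reached 24.9, 59.8 and 28.6 kb there. Under both agents the sums were 22.3, 3.68 and 26.6 kb, and I-BET alone gave 25.3 kb. The means were 16.0 ± 7.69, 37.8 ± 19.2 and 17.5 ± 12.2 kb (SD, n = 3 each). Every RANKL list lay above every untreated list, as for 41.8% of 15794 gene windows, and RANKL+I-BET spanned both. RANKL+I-BET minus RANKL was -20.3 kb (two-sided exact permutation p = 0.2), and -2.33 kb without the libraries numbered 2 (exact p = 0.667). RANKL+I-BET minus untreated was 1.498 kb (two-sided exact permutation p = 0.9), and 4.27 kb without the libraries numbered 2 (exact p = 0.667). These sums include the Aif1 peaks, on which the locus was chosen. Without the bases of the Aif1 consensus region they differed by -19.0 kb (exact permutation p = 0.2) and 1.43 kb (exact permutation p = 0.9). The Aif1 peak of RANKL replicate 2, 4.68 kb wide, reaches beyond that region, and its outer parts stayed in the sum. This comparison is therefore not free of the peaks on which the locus was chosen. An exact test of 3 against 3 cannot go below 0.1, and 2 against 2 cannot go below 0.333.

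Between libraries of the same number, RANKL+I-BET differed from RANKL by -2.65, -56.1 and -2.01 kb for numbers 1, 2 and 3. From untreated it differed by -0.678, -4.04 and 9.21 kb. Only in the pair numbered 2 was the first difference large, and the second had no common sign. Covered length at the locus ran beside that of the whole list. For each Mb of its list, the locus took 1429, 992 and 889 bp in untreated replicates, 1052, 324 and 1103 bp with RANKL, 970, 1071 and 1291 bp with RANKL+I-BET and 1294 bp with I-BET alone. On this scale untreated and RANKL overlapped, and RANKL replicate 2 was lowest.

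**Figure D4:**
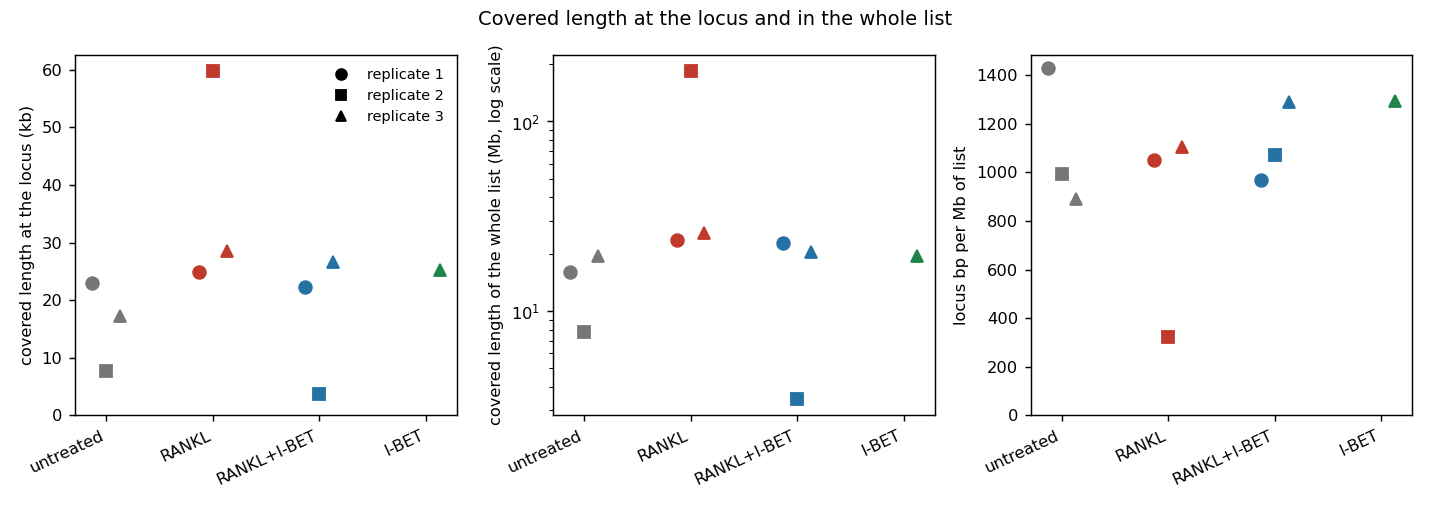
Covered length at the locus in kb (left), covered length of the whole list in Mb on a log axis (middle) and locus bp per Mb of list (right), with 1 point for each library, coloured by group and shaped by replicate. RANKL replicate 2 is the highest point at the locus (59.8 kb) and in the whole list (184.6 Mb) and the lowest per Mb (324 bp).

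Within the window of each member (its span plus 25 kb), covered length for Tnf was 21.2, 7.52 and 15.3 kb in the untreated lists. It was 21.6, 36.5 and 24.8 kb in the RANKL lists, 19.6, 3.53 and 24.1 kb under both agents, and 22.4 kb for I-BET. For Aif1 the untreated lists gave 11.5, 3.40 and 6.79 kb and the RANKL lists 13.045, 36.2 and 13.7 kb. Under both agents it was 11.7, 0.429 and 12.8 kb, and for I-BET 13.95 kb. The windows of neighbouring members share most of their peaks, so the members are not independent of each other. The Tnf window was among the most covered of 21888 genes: 18 genes had more in untreated replicate 1, 44 in RANKL replicate 3 and 26 in RANKL+I-BET replicate 3. Its place was within the top 0.0914% to 0.923% in 9 lists and the top 8.41% in RANKL replicate 2. The Aif1 window placed within the top 0.937% to 5.29% in 8 lists, the top 8.61% in RANKL replicate 2 and the top 23.7% in RANKL+I-BET replicate 2.

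For all 6 members every RANKL list covered more of the window than every untreated list, a pattern that 41.8% of 15794 genes had. The choice of the locus used this same comparison, through the region gained at Aif1, which the windows of Tnf and Lta do not contain. In RANKL replicate 2 the peak at Aif1 is wider than that region, and its outer part reaches into the Tnf window. Every RANKL list covered more than every RANKL+I-BET list for 1 of 6 members, Aif1, where the lowest RANKL value was 13.045 kb and the highest RANKL+I-BET value 12.8 kb. Of the same genes 23.9% had this pattern, so the count for the members does not exceed the background. No member had every RANKL+I-BET list above every untreated list, as 0.386% of genes did, or every untreated list above every RANKL+I-BET list, as 0.0443% did.

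When every list was trimmed by -log10 p to the same covered length of 3.44 Mb, the locus kept few peaks. Left at the locus were 1.45, 7.45 and 0 kb in the untreated lists and 7.245, 0 and 1.46 kb in the RANKL lists. Under both agents 0, 3.68 and 0 kb were left, and for I-BET 8.55 kb. The Aif1 peak was among those kept in RANKL replicates 1 and 3. On these lists limma (a moderated linear model, with Benjamini-Hochberg adjustment) called 0 of 4404 genes (0%) for RANKL+I-BET against RANKL and 0 of 4404 (0%) for RANKL+I-BET against untreated, at an adjusted p under 0.05. Unadjusted p-values under 0.05 numbered 171 and 65. All 6 members passed the filter on low values, through lists that differ between them.

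For Aif1, RANKL+I-BET differed from RANKL by -1.66 on the log2 scale of covered length plus 500 bp (SE 1.06), and from untreated by -1.07 (SE 1.06). The choice of the locus used the -log10 p of the RANKL peaks at Aif1 and their absence from untreated lists, and both comparisons share those libraries, so these differences are a description with no test. The windows of Lst1, Ncr3-ps and Ltb contain the Aif1 region too. They differed from RANKL by -1.42, -1.42 and -0.82, and from untreated by -0.91, -0.91 and -0.97. The windows of Tnf and Lta do not contain it. For Tnf the differences were -0.04 (SE 1.10, limma adjusted p = 0.997) and -0.97 (SE 1.10, limma adjusted p = 1), neither beyond the spread between libraries, and Lta had the same values. Over all genes tested the median differences were 0.27 and 0. After trimming, the Tnf window held 1451, 7251 and 0 bp in untreated replicates, 3901, 0 and 0 bp with RANKL and 0, 3528 and 0 bp with RANKL+I-BET. The lowest -log10 p kept ran from 3.67 in untreated replicate 2 to 48.5 in RANKL replicate 2. The peak over Tnf was itself trimmed from every RANKL list, so these differences cannot decide whether acetylation of Tnf differed.

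The genes through which the locus' ligands signal were taken as a list of 26 genes of the TNF and lymphotoxin pathway, all of which were found in the annotation. Of these 14 to 26 had a peak within 1 kb in each list, the lowest number being that of RANKL+I-BET replicate 2. At one covered length 10 of the 26 passed the filter, and limma called 0 of 10 in each of the 3 comparisons. With RANKL against untreated 3 of 10 were higher and 7 lower, with a median log2 difference of -0.48 against -0.24 over all genes. With RANKL+I-BET against RANKL 7 were higher and 2 lower (median 0.52, against 0.27 over all genes). Both comparisons share the RANKL libraries. Without the libraries numbered 2, 8 of the 26 passed the filter. Of these, 4 were higher and 4 lower with RANKL against untreated (median -0.02), and 3 higher and 4 lower with RANKL+I-BET against RANKL (median -0.06). With peaks ranked by fold 9 passed, and RANKL+I-BET against RANKL had 4 higher and 5 lower (median -0.14). The direction of RANKL+I-BET against RANKL thus turned in these settings. That of RANKL against untreated did not turn, but its counts were equal without the libraries numbered 2. In the lists as deposited, 14 of 26 had every RANKL list above every untreated list, beside 41.8% of all genes, and 10 of 26 had every RANKL list above every RANKL+I-BET list, beside 23.9%.

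Of the receptors, Tnfrsf1a is the broadly expressed TNF receptor with a death domain. Its window had 2.15, 1.44 and 1.54 kb covered in untreated lists and 2.51, 46.0 and 1.94 kb in RANKL lists, against 2.90, 1.33 and 2.90 kb under both agents and 2.58 kb for I-BET. Tnfrsf1b, the TNF receptor without a death domain, had 11.1, 2.15 and 3.95 kb in untreated and 8.86, 33.8 and 7.19 kb in RANKL lists, against 11.3, 0.920 and 5.88 kb under both agents and 5.25 kb for I-BET. Ltbr, the lymphotoxin beta receptor, had 0.603, 0.653 and 0.995 kb in untreated and 0.855, 20.5 and 1.05 kb in RANKL lists, against 1.02, 0.543 and 1.21 kb under both agents and 0.919 kb for I-BET. The RANKL and untreated values overlapped at all 3 receptors, and RANKL replicate 2 was the highest list at each. Adam17, the protease that sheds TNF from the cell surface, had 7.68, 1.40 and 5.90 kb in untreated and 9.51, 13.7 and 9.91 kb in RANKL lists. These did not overlap, as for 41.8% of 15794 genes. Under both agents it had 8.35, 1.02 and 10.1 kb, and for I-BET 6.65 kb.

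The genes on other chromosomes whose covered length was most like that of Tnf over the 10 lists were Sh3bp2, Fyb and Kcnn4, with a mean absolute log2 difference of 0.14, 0.19 and 0.22. Those most like Aif1 were Cyp2w1, Adamts4 and Hipk2, at 0.21, 0.22 and 0.24. All lists share their total length across genes, and these likenesses are a description with no test.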

How the data were processed

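H3K27ac was measured by chromatin immunoprecipitation and single-end sequencing in 10 libraries. The 10 input samples were left out. The tools, per the submitters' processing notes, were FastQC, Bowtie2 and MACS2 on mm10 (GRCm38), with no versions. Peak settings and pairing with inputs are not given in the sources used here. The authors deposited broad-peak lists without a header. Their fold enrichment is a linear ratio over local background, their p and q values are on a -log10 scale, and the score the authors deposited equals the -log10 q multiplied by 10. These values describe or rank peaks, and in an alternative a -log10 q of at least 5 served as a cut on all lists.

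Groups and numbers came from the labels. Gene spans and promoter sequences came from RefSeq (GRCm38.p6), with 21887 protein-coding genes and Ncr3-ps. A region counted as held from 1 bp of overlap with a list's peaks. limma 3.58.1 (R 4.3.3, trended prior) fitted log2 of the covered length plus 500 bp for genes with a mean of at least 500 bp over 9 libraries, each list cut to 3.44 Mb by -log10 p. Single values were compared by exact permutation. The limma fit and the interval code were tested on simulated data. The alternatives were other windows, pseudocounts, filters, rankings and thresholds, lists as deposited, a replicate block and leaving out libraries. The combinations with median-centred lists were chosen after seeing the data. Named genes were the members, their neighbours, 4 of the pathway genes by role, and the 3 genes most like Tnf and Aif1. The members and lists were chosen with earlier results of these data known.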

Additional observations from a re-analysis of the deposited data

How the results depend on the processing

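limma called 0 genes in each of the 3 comparisons under every alternative, including the replicate block and each library left out (range 0 to 0). Same-numbered libraries had deviations that correlated by 0.0138 to 0.252 at one covered length and by 0.148 to 0.583 in the median-centred lists as deposited. For libraries of different number the ranges were -0.173 to 0.0527 and -0.519 to 0.384. The replicate block left the locus differences at -20.3 kb (exact p = 0.25) and 1.498 kb (exact p = 1). An exact test of 3 pairs cannot go below 0.25, so it cannot decide whether the locus differed. The first difference also rests on RANKL sums that include the Aif1 peaks used to choose the locus. RANKL+I-BET minus RANKL at the locus kept its sign in all 13 alternatives, with -1.67 kb at one covered length. It was -26.7 to -9.24 kb with each library left out, -9.24 kb being without RANKL replicate 2. All these sums include RANKL peaks at Aif1, or parts of them, on which the locus was chosen. The kept sign is therefore a description. At one covered length, the 1.46 kb left in RANKL replicate 3 was the Aif1 peak alone. RANKL+I-BET minus untreated turned to -1.74 kb at one covered length, and was -2.64, -0.883 and -3.03 kb without untreated replicate 2, RANKL+I-BET replicate 1 and RANKL+I-BET replicate 3, in a range of -3.03 to 8.41 kb (without RANKL+I-BET replicate 2) with each library left out.

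For Tnf the log2 difference from RANKL turned to 0.65 in median-centred lists as deposited (0.65 also with the replicate block and 0.084 without the libraries numbered 2), 0.28 with a 50 kb window and 1.11 with peaks ranked by fold, was -1.57 without the libraries numbered 2, and ran from -1.05 (without RANKL+I-BET replicate 2) to 1.00 (without RANKL replicate 1) with each library left out. It was 0.46 without RANKL+I-BET replicate 1 or 3. Against untreated it turned to 0.49 with peaks ranked by fold, and ran from -1.97 to 0.021 (without untreated replicate 2). For Aif1 the difference from RANKL was -2.94 without the libraries numbered 2 and ran from -2.64 (without RANKL replicate 2) to -0.69 (without RANKL replicate 1) with each library left out. It was -2.57 with a pseudocount of 100 bp, -0.47 with peaks ranked by fold, -0.03 with a 50 kb window and -0.07 in median-centred lists as deposited, where it turned to 0.049 without the libraries numbered 2. Against untreated, Aif1 ran from -1.76 (without untreated replicate 3) to -0.28 (without untreated replicate 2). It was -0.58 without the libraries numbered 2, -0.09 with a 10 kb or 50 kb window, -1.85 with a pseudocount of 100 bp and -0.26 in median-centred lists, and turned to 0.15 in those without the libraries numbered 2 and to 0.65 with peaks ranked by fold. The cause was not tested.

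Gained regions numbered 1351 with 50% coverage required, 461 at a -log10 q of at least 5, 1038 without the libraries numbered 2 and 6 at one covered length. They numbered 1372, 2080, 1724 and 1748 without untreated replicate 1, untreated replicate 3, RANKL replicate 1 and RANKL replicate 3, in a range of 844 to 2080. The Aif1 region was among them in each case except at one covered length, where 2 of 3 RANKL lists and 0 RANKL+I-BET lists held it. Regions absent with RANKL+I-BET numbered 571 with 50% coverage and 4 at one covered length. With single libraries left out they ranged from 350 to 1606, with 1312, 1174, 1606 and 538 without RANKL replicates 1 and 3 and RANKL+I-BET replicates 1 and 3. They numbered 304 at a -log10 q of at least 5. The Aif1 region was among them with 50% coverage, at that -log10 q and without RANKL+I-BET replicate 1.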

Other observations

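RANKL replicate 2 had wider peaks on the genes that flank the locus than the other lists. Its peaks covered 83.8% of Prrc2a, a large gene for a protein of RNA granules, against 0.603% to 13.6% in the other lists, and 78.5% of Nfkbil1, against 12.3% to 45.4%. Both shares include the regions of these genes that all 10 lists held. One of its peaks reached across each edge of the 84.6 kb stretch, with a fold enrichment of 2.97 and 5.90. In the other 9 lists the nearest peak outside lay 9.51 to 10.2 kb before the stretch and 1.81 to 4.24 kb after it, and the first and last peaks inside lay 17.1 to 19.2 kb and 7.03 to 9.65 kb from the edges. Bag6, a chaperone gene at the edge, was covered over 5.03% to 10.9% of its body in those lists and 64.6% in RANKL replicate 2.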
